A study of Mus musculus with 4 samples.

Results

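The 10 genes described here are markers and working parts of the macrophages of the spleen. They are C1qa, C1qb and C1qc (the chains of the complement protein C1q), Slc40a1 and Hmox1 (iron and heme handling), and the surface or secreted products Vcam1, Adgre1, Csf1r, Mertk and Lyz2. The members are every probe set that the array's annotation assigns to 1 of these symbols. All 10 genes were found, with 17 probe sets among 22626 tested, and 0 of these probe sets was shared with another gene. By the same annotation 12393 genes had a probe set with 1 symbol.

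The series holds 4 Affymetrix mouse arrays, 2 for each group. Female C57BL/6 mice aged 8 to 12 weeks, 3 per group, received intraperitoneal injections of 10 µg/kg TCDD or of the DMSO solvent, both in corn oil. TCDD is a dioxin that activates the aryl hydrocarbon receptor, a ligand-activated transcription factor. After 24 h dendritic cells were isolated from pooled spleens by density gradient and magnetic sorting, to a stated purity above 90%. The labels number the arrays of a group as biological replicates and do not say whether an array stands for a separate pool of mice, so p-values measure only the spread between arrays.

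Red pulp macrophages clear aged red blood cells. They break down heme with heme oxygenase 1 (Hmox1) and release the iron through ferroportin (Slc40a1). C1q starts the classical complement pathway and binds dying cells, and macrophages and some dendritic cells make it. F4/80 (Adgre1), the CSF1 receptor (Csf1r) and the phosphatidylserine-sensing receptor kinase MerTK are widely used macrophage markers, while Csf1r and lysozyme (Lyz2) also occur in monocytes and in part of the dendritic cells.

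The promoter table used here, from RefSeq on GRCm38.p6, held 300 bases around the start site, 250 before it and 50 after it, for 4 of the members that could be shown, C1qb, C1qc, Lyz2 and Mertk. Each was searched on both strands for the core of the xenobiotic response element (GCGTG), which the aryl hydrocarbon receptor binds. The search also covered TGANNNNGC, a loose form of the antioxidant response element, and GAGGAA, a box of the myeloid factor PU.1. The 250 bases before the start of C1qb and C1qc are shown because no other member searched had a match there. Both lie on chromosome 4 on the minus strand, C1qb at chr4:136886201-136886450 and C1qc at chr4:136892915-136893164, and capitals mark the matches.
C1qb: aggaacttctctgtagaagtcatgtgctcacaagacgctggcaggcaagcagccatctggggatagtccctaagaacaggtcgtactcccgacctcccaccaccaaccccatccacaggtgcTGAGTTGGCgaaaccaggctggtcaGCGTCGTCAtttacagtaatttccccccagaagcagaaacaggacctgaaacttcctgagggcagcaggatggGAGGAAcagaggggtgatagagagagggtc
C1qc: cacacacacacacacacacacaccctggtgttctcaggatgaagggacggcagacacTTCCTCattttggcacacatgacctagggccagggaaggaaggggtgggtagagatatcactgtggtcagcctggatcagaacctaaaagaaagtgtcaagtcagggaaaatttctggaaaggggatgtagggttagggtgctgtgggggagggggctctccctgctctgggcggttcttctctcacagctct

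C1qb held 2 matches to the loose form of the antioxidant response element, starting 128 and 103 bases before the start site, and a PU.1 box 30 bases before it. C1qc held a PU.1 box on the opposite strand, 193 bases before the start. Over the whole 300 bases the PU.1 box was present in 2 of the 4 members and in 28.3% of all 32851 promoters. The loose antioxidant form was present in 3 of the 4 members and in 41.3% of promoters. The xenobiotic core was present in 1 of the 4, Mertk, just after its start site, and in 32.4% of promoters. These matches are descriptions of the letters and not of binding.

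Values are log2 RMA values, on which a difference of 1 is a factor of 2, and differences are TCDD minus DMSO. The brightest probe set was lower in both TCDD arrays than in both DMSO arrays in 6 of the 10 genes, namely Hmox1, Slc40a1, Vcam1, Adgre1, C1qa and Mertk, and higher in 0. Over all genes 19.4% had this pattern on the lower side and 20% on the higher side. Counted by probe set, 8 of the 17 were lower without overlap and 0 higher, beside 18.4% and 19% of all probe sets. The median difference of the 10 genes was -0.80, against 0.00 for all genes. No member passed the test. Limma, adjusted by Benjamini-Hochberg over all 22626 probe sets, called 0 of the 17 member probe sets and 0 (0%) of all probe sets, with adjusted p from 0.349 to 1 among the members. At an unadjusted p under 0.05 there were 4 of 17 member probe sets, all lower in TCDD, beside 13.1% of all probe sets in either direction and 6.7% on the lower side.

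The members are bright, and bright probe sets lay lower in TCDD in general. Of 1789 probe sets with a DMSO mean from 8 to 9, 40% were lower without overlap and the median difference was -0.35. From 9 to 10 these values were 45.6% and -0.45, and from 7 to 8 they were 31.9% and -0.20. Quantile normalization on top of the deposited values brought the medians in these ranges to between -0.0625 and -0.0375, and the median of the 10 genes to -0.44, with 4 genes lower without overlap. By gene, on the brightest probe set, 42.7% of the 2428 genes with a DMSO mean of 8 or more were lower without overlap, and so were 4 of the 7 members at that level. The part of this shift in the members' differences was not tested.

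**Figure D1:**
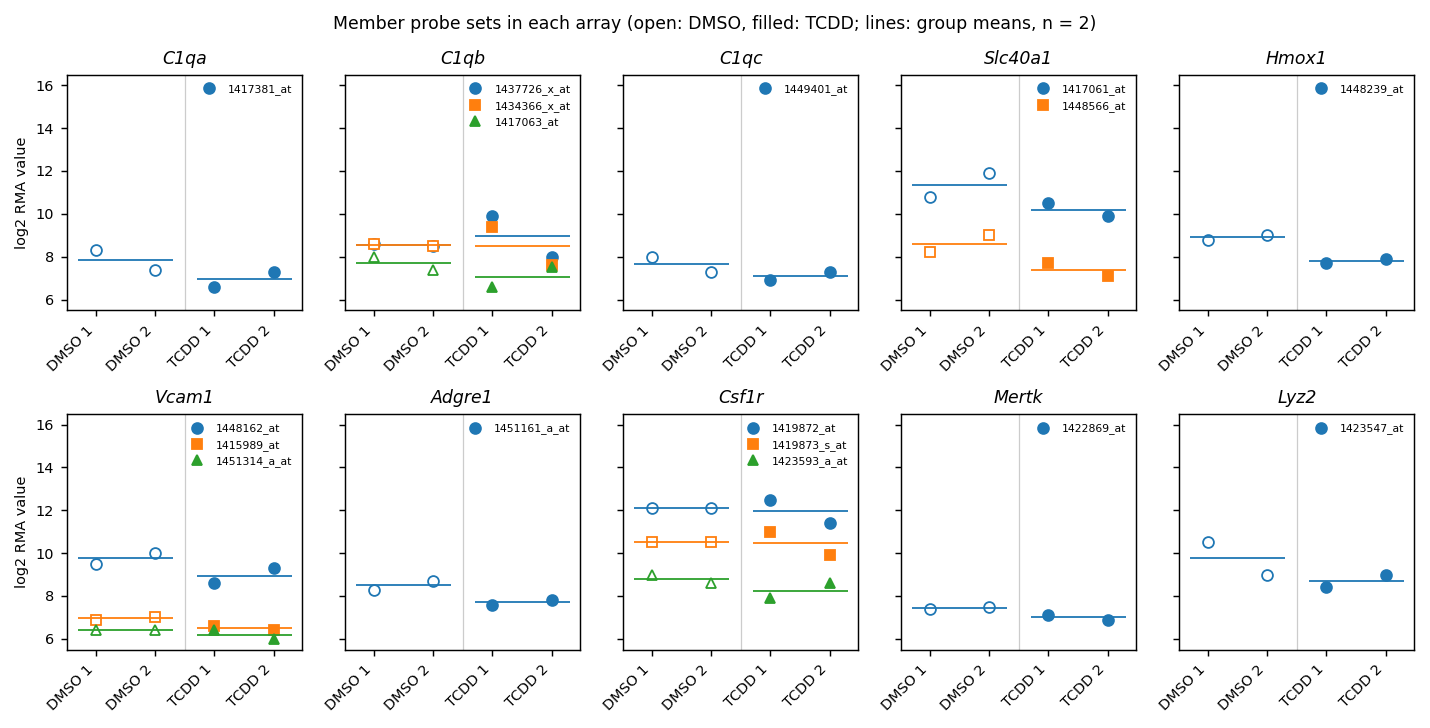
Log2 RMA values (y axis) of the 17 probe sets of the 10 genes in each of the 4 arrays (x axis), with open symbols for DMSO, filled symbols for TCDD and lines for group means (n = 2). Slc40a1 lies lower in both TCDD arrays on both of its probe sets, and Hmox1, Adgre1, C1qa and Mertk on their only one. C1qb and Csf1r have probe sets that part in TCDD replicate 1.

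Hmox1 and Slc40a1, the heme-degrading enzyme and the iron exporter, had the largest differences among the brightest probe sets of the 10 genes. Hmox1 read 8.8 and 9.0 after DMSO (replicates 1 and 2, an order kept below) and 7.7 and 7.9 after TCDD. The groups did not overlap, and the gap between them was several times the gap within each. The difference was -1.10 (SE 0.131, n = 2 per group), a 2.14-fold lower level, with a limma 95% interval from -1.51 to -0.69 and an adjusted p of 0.349. With quantile normalization it was -0.775, and over all alternatives it ranged from -1.20 to -0.775.

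Slc40a1 read 10.8 and 11.9 after DMSO, 10.5 and 9.9 after TCDD where its signal was brighter. Its other probe set gave 8.2 and 9.0 after DMSO, 7.7 and 7.1 after TCDD. The 2 probe sets gave the same order of arrays, with DMSO replicate 2 highest and TCDD replicate 2 lowest, and neither overlapped between groups. The differences were -1.15 (SE 0.513) and -1.20 (SE 0.411), with limma adjusted p of 0.444 and 0.404. Because the DMSO arrays themselves differed by 1.1 on the brighter probe set, its difference was -0.60 without DMSO replicate 2 and -1.70 without DMSO replicate 1.

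Vcam1 and Adgre1 are surface proteins of red pulp macrophages, an adhesion molecule and the F4/80 antigen. Adgre1 read 8.3 and 8.7 after DMSO, 7.6 and 7.8 after TCDD, without overlap. The difference was -0.80 (SE 0.192, limma adjusted p = 0.379), or -0.475 with quantile normalization. Vcam1 read 9.5 and 10.0 after DMSO, 8.6 and 9.3 after TCDD on its brightest probe set, a difference of -0.80 (SE 0.355) that became -0.40 with quantile normalization. Its second probe set gave 6.9 and 7.0 against 6.6 and 6.4, a difference of -0.45 (SE 0.110). The third overlapped between groups, at 6.4 and 6.4 after DMSO, 6.4 and 6.0 after TCDD. All 3 Vcam1 probe sets had differences below 0, with sizes from 0.20 to 0.80 in order of their brightness.

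Mertk, a receptor for dying cells coated with Gas6 or protein S, read 7.4 and 7.5 after DMSO, 7.1 and 6.9 after TCDD. The difference was -0.45 (SE 0.110, limma adjusted p = 0.379), small but without overlap, and it was -0.25 with quantile normalization. At this DMSO level, 7 to 8, the median of all probe sets was -0.20.

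**Figure D2:**
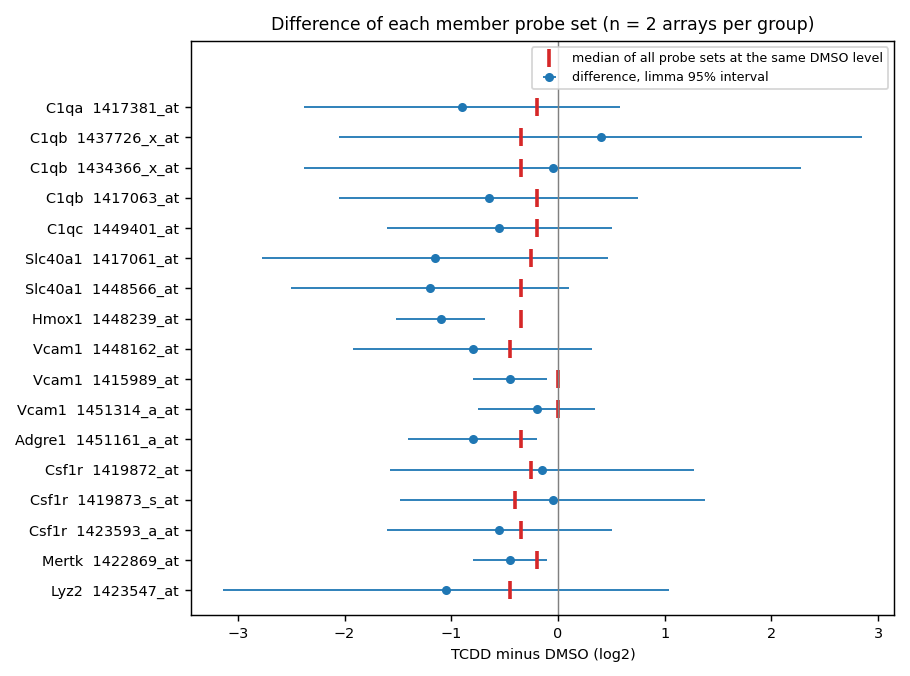
TCDD minus DMSO differences on the log2 scale (x axis) for the 17 member probe sets (y axis), with limma 95% intervals (n = 2 arrays per group) and, as red ticks, the median of all probe sets in the same range of DMSO level. Of the 17 differences, 16 lie below 0; the intervals of Hmox1, Adgre1, Mertk and 1 Vcam1 probe set leave out 0.

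The C1q chains are encoded by neighbouring genes and join into 1 protein. C1qa read 8.3 and 7.4 after DMSO, 6.6 and 7.3 after TCDD. C1qc read 8.0 and 7.3 after DMSO, 6.9 and 7.3 after TCDD. C1qb read 8.0 and 7.4 after DMSO, 6.6 and 7.5 after TCDD on the probe set without the x suffix. In all 3 chains DMSO replicate 1 was highest and TCDD replicate 1 lowest, while DMSO replicate 2 and TCDD replicate 2 differed by at most 0.1. The differences were -0.90 (SE 0.467) for C1qa, -0.55 (SE 0.333) for C1qc and -0.65 (SE 0.444) for C1qb, with limma adjusted p from 0.453 to 0.556. Without TCDD replicate 1 the differences were -0.55 for C1qa, -0.35 for C1qc and -0.20 for C1qb, and without DMSO replicate 1 they were -0.45, -0.20 and -0.35.

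C1qb has 2 further probe sets that went the other way in TCDD replicate 1. The x suffix in their names marks probe sets of which some probes can match other transcripts. One gave 8.6 and 8.5 after DMSO, 9.9 and 8.0 after TCDD, and the other 8.6 and 8.5 after DMSO, 9.4 and 7.6 after TCDD. Each was the highest of the 4 arrays in TCDD replicate 1 and the lowest in TCDD replicate 2. Their differences, 0.40 (SE 0.775) and -0.05 (SE 0.735), were smaller than the spread between the TCDD arrays. Against the DMSO mean, the 3 C1qb probe sets spread over 2.45 in TCDD replicate 1, from -1.10 to 1.35, and over 0.75 in TCDD replicate 2.

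Csf1r, the receptor for the macrophage growth factor CSF1, parted in the same array. Its brightest probe set read 12.1 and 12.1 after DMSO, 12.5 and 11.4 after TCDD. The next read 10.5 and 10.5 after DMSO, 11 and 9.9 after TCDD. The third gave 9.0 and 8.6 after DMSO, 7.9 and 8.6 after TCDD. The differences were -0.15 (SE 0.451), -0.05 (SE 0.451) and -0.55 (SE 0.333), and the direction of the first and second turned with quantile normalization, to 0.0375 and 0.24. No direction can be read for Csf1r from the 2 brighter probe sets. In TCDD replicate 2 all 3 lay 0.20 to 0.70 below the DMSO mean.

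**Figure D3:**
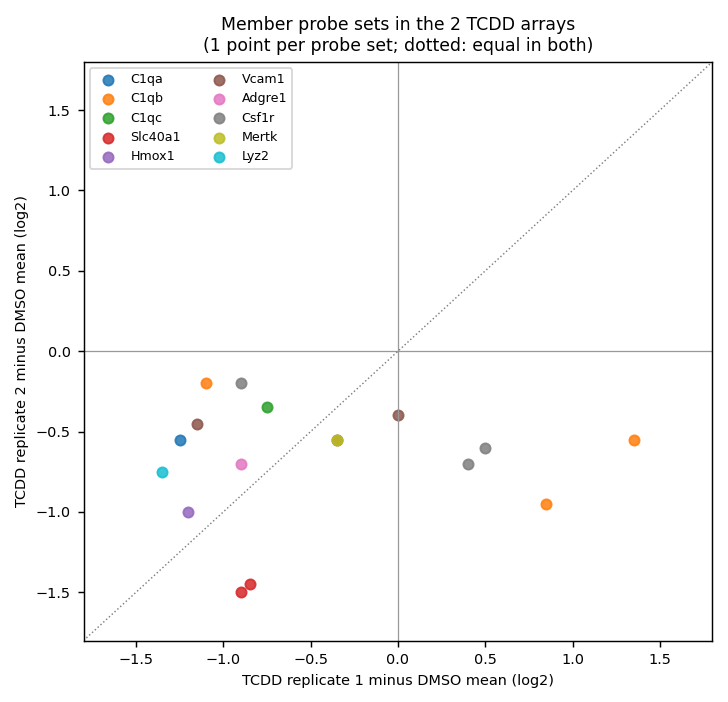
Each of the 17 member probe sets (points, coloured by gene; 1 point of Vcam1 lies under that of Mertk) by its distance from the DMSO mean in TCDD replicate 1 (x axis) and TCDD replicate 2 (y axis), on the log2 scale. All points lie below 0 in TCDD replicate 2, while 2 points of C1qb and 2 of Csf1r lie above 0 in TCDD replicate 1.

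TCDD replicate 1 also stood apart in control probe sets along 2 housekeeping transcripts. The signal at the 3′ end exceeded that of the middle by 3.6 for Gapdh and 4.0 for beta-actin, against 1.5 to 2.1 in the other 3 arrays. Between the 3′ and the 5′ end it stood less apart, with 5.4 against 4.1 to 4.9 for Gapdh and 4.4 against 3.3 to 4.0 for beta-actin. Of all probe sets with a DMSO mean from 8 to 10, the 316 with the x suffix stood at a median of 0.20 against the DMSO mean in TCDD replicate 1, and the other 2424 at -0.35. In TCDD replicate 2 these medians were -0.40 and -0.55. Of C1qb and Csf1r, only C1qb has probe sets with the x suffix. Probe positions were not used here. The part of the control signal gaps in the C1qb and Csf1r values, and of the suffix in those of C1qb, was not tested.

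Lyz2, the lysozyme of macrophages and neutrophils, read 10.5 and 9.0 after DMSO, 8.4 and 9.0 after TCDD. Its groups touched, and the DMSO arrays differed by 1.5. The difference of -1.05 (SE 0.659, limma adjusted p = 0.536) was therefore inside the spread between arrays, and it was -0.30 without DMSO replicate 1. Lyz1, a close paralog whose probe sets may take up Lyz2 transcripts, gave 12.0 and 10.9 after DMSO, 11.9 and 10.8 after TCDD on its brightest probe set, a difference of -0.10 (SE 0.635).

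The 2 DMSO arrays did not order the members alike. DMSO replicate 1 was the higher in 7 of the 17 probe sets, among them all of the C1q chains and Lyz2, DMSO replicate 2 in 7, among them those of Slc40a1, Hmox1 and Adgre1, and the values tied in 3.

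Other markers of red pulp macrophages that are not members had lower values in TCDD too. Of 8 such markers measured, 4 were lower without overlap and 0 higher, beside the 19.4% and 20% of all genes, and their median difference was -0.75, or -0.44 with quantile normalization. All 4 were among the 5 markers with a DMSO mean of 8 or more, the level at which 42.7% of genes had this pattern. Hpgd, the enzyme that breaks down prostaglandins, read 8.8 and 9.2 after DMSO and 7.2 and 7.9 after TCDD, differing by -1.45 (SE 0.333), although its second probe set gave -0.25. Clec4n, which encodes the fungal receptor dectin-2, differed by -0.95 (SE 0.212), with -1.45 on its other probe set, and the ficolin gene Fcna by -0.95 (SE 0.227). Spic, the transcription factor that red pulp macrophages need, was picked out after its values were seen and read 5.9 and 6.1 after DMSO, 5.4 and 6.7 after TCDD. Of the 8 markers 3 were lower at a limma unadjusted p under 0.05, beside 6.7% of all probe sets, and 0 passed the adjusted test.

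Markers of marginal zone macrophages lay on both sides. Of the 6 measured 1 was lower without overlap and 0 higher, beside 19.4% and 20% of all genes, and the median difference was -0.025. The transglutaminase gene Tgm2 differed by -0.65 (SE 0.556) on its brightest probe set, and by -1.65 without overlap to 0.45 on its other 5. Cd5l, which encodes a secreted scavenger protein, read 9.4 and 9.5 after DMSO, 9.3 and 8.8 after TCDD, without overlap. Nr1h3 (LXR alpha) differed by 0.20 and the sialoadhesin gene Siglec1 by 0.10. The difference between the red pulp and marginal zone lists was not tested.

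Among other genes of heme and iron handling, 12 of 29 measured were lower without overlap and 2 higher, against 19.4% and 20% of all genes. Of the 11 with a DMSO mean of 8 or more 7 were lower, against 42.7%. The median was -0.20, or -0.075 with quantile normalization. Pcbp1, an iron chaperone, differed by -1.10 (SE 0.390), and Ncoa4, the receptor that sends ferritin to the lysosome, by -1.10 (SE 0.300) on its brightest probe set but by 0.45 on the other. The phagosomal metal transporter gene Slc11a1 differed by -1.0 (SE 0.533), reading 6.4 in TCDD replicate 2 and 7.7 to 8.1 elsewhere. Pcbp2 differed by -0.90 (SE 0.192) on its brightest probe set and by 0.05 on the other. None passed the adjusted test. At a limma unadjusted p under 0.05, 4 of the 29 were lower and 1 higher, beside 6.7% and 6.37% of all probe sets. Of genes chosen after their values were seen, the hemochromatosis gene Hfe had the smallest unadjusted p of the list and differed by -0.85 (SE 0.0744, limma unadjusted p = 0.00138, adjusted p = 0.349). Alas1, the first enzyme of heme synthesis, differed by -0.80, the ferritin heavy chain Fth1 by -0.30 and the transferrin receptor Tfrc by 0.10.

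Bach1 represses Hmox1 until heme binds it, and Nfe2l2 (NRF2) activates it. Bach1 read 9.3 and 9.9 after DMSO and 8.7 and 8.4 after TCDD, differing by -1.05 (SE 0.280, limma adjusted p = 0.379). Its other probe set, among the dimmest 40%, went the other way without overlap, at 4.8 and 4.5 after DMSO, 4.9 and 5.0 after TCDD. With quantile normalization the brighter one gave -0.675. Nfe2l2 read 7.3 and 7.3 after DMSO and 6.7 and 7.3 after TCDD. Of 13 measured genes of this regulation and its targets 4 were lower without overlap and 0 higher, beside 19.4% and 20% of all genes. Their median was -0.15. Sqstm1, an NRF2 target and autophagy receptor, differed by -0.65. The glutathione synthesis gene Gclc differed by -0.50, or -0.16 with quantile normalization, and by -0.25 with overlap on its other probe set.

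The other complement genes lay on both sides. Of 21 components and regulators 2 were lower without overlap and 8 higher, beside 19.4% and 20% of all genes. Their median was 0.05, and 7 of the 21 were among the dimmest 40%. Only 2 of the 21 had a DMSO mean of 8 or more, where 42.7% of genes were lower, and both were lower without overlap. Properdin (Cfp) differed by -0.65 (SE 0.255) and the complement regulator Cr1l by -0.60 (SE 0.143), which became -0.30 and -0.24 with quantile normalization. Vtn, the vitronectin gene, differed by 1.0 (SE 0.238), and clusterin (Clu) by 1.25 (SE 0.480) on its brightest probe set, with 0.00 to 0.95 on its other 3. Of 10 receptors for complement or C1q 2 were lower and 2 higher, with a median of 0.025. At a DMSO mean of 8 or more 2 of 4 were lower. Itgb2 and Itgax, the chains of complement receptor 4, which dendritic cells carry, differed by -0.85 (SE 0.212) and -0.60 (SE 0.245), or by -0.5875 and -0.20 with quantile normalization. C1qbp, a C1q-binding protein gene, differed by 0.30 on its brightest probe set and -0.40 on the other, and the C3b receptor gene Vsig4 by 0.30.

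Genes around the other members varied in both directions. In the engulfment list 4 of 16 were lower without overlap and 2 higher, beside 19.4% and 20% of all genes, with a median of -0.10. Of its 4 genes with a DMSO mean of 8 or more 2 were lower, against 42.7% of all genes at that level. Its largest difference was that of the scavenger receptor gene Cd36, -1.80 (SE 0.369) on the brightest probe set, -1.55 on the next and -0.20 on the third, which was among the dimmest 40%. The list also holds Axl, the sister receptor of Mertk, which read 7.2 and 7.6 after DMSO and 6.4 and 6.6 after TCDD, differing by -0.90 (SE 0.192). Rac1, a GTPase that drives engulfment, differed by -0.80 on both of its bright probe sets, and the integrin chain gene Itgav by -0.85 (SE 0.761) on its brightest probe set but by 0.50 on the next. The list of macrophage transcription factors and CSF1 pathway genes held 16 measured genes, 2 of them with a DMSO mean of 8 or more. Without overlap 0 of the 16 were lower and 4 higher, with a median of 0.05. There Cebpb differed by -0.60 (SE 0.825) and Cebpa by -0.45 (SE 0.380), both within the spread between arrays. Il34, the second ligand of the CSF1 receptor, read 5.4 and 5.4 after DMSO, 5.7 and 6.0 after TCDD, a difference of 0.45 (SE 0.137), and the adaptor gene Gab2 differed by 0.40 (SE 0.143), both higher without overlap. Of the 9 VCAM-1 ligands and adhesion partners 2 were lower and 1 higher, with a median of -0.15 that turned to 0.0875 with quantile normalization. At a DMSO mean of 8 or more 1 of 4 was lower. The actin linker gene Msn differed by -0.80 (SE 0.143) and its dim second probe set by 0.40, the dim addressin gene Madcam1 by 0.40 and Icam1 by -0.15. The integrin chain gene Itgb1 differed by -0.30 on its brightest probe set and -2.10 on the next. Its remaining probe sets, all among the dimmest 40%, differed by -0.05 to 0.05.

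In the lysosomal list 6 of the 11 measured genes were lower without overlap and 0 higher, and the median was -0.70. These genes are bright: 10 had a DMSO mean of 8 or more, and 5 of those 10 were lower, near the 42.7% of all genes at that level. The glucuronidase gene Gusb read 9.4 and 8.8 after DMSO and 7.0 and 8.2 after TCDD, differing by -1.50 (SE 0.549). Psap, the precursor of the saposins, differed by -1.30 (SE 0.638) and Cst3, the cystatin C gene much expressed in dendritic cells, by -1.15 (SE 0.280). Cd68 read 9.8 and 9.1 after DMSO, 7.8 and 9.4 after TCDD, so that its groups overlapped. With quantile normalization the median of this list was -0.45. None of its genes passed the adjusted test, and 3 were lower at a limma unadjusted p under 0.05, beside 6.7% of all probe sets.

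**Figure D4:**
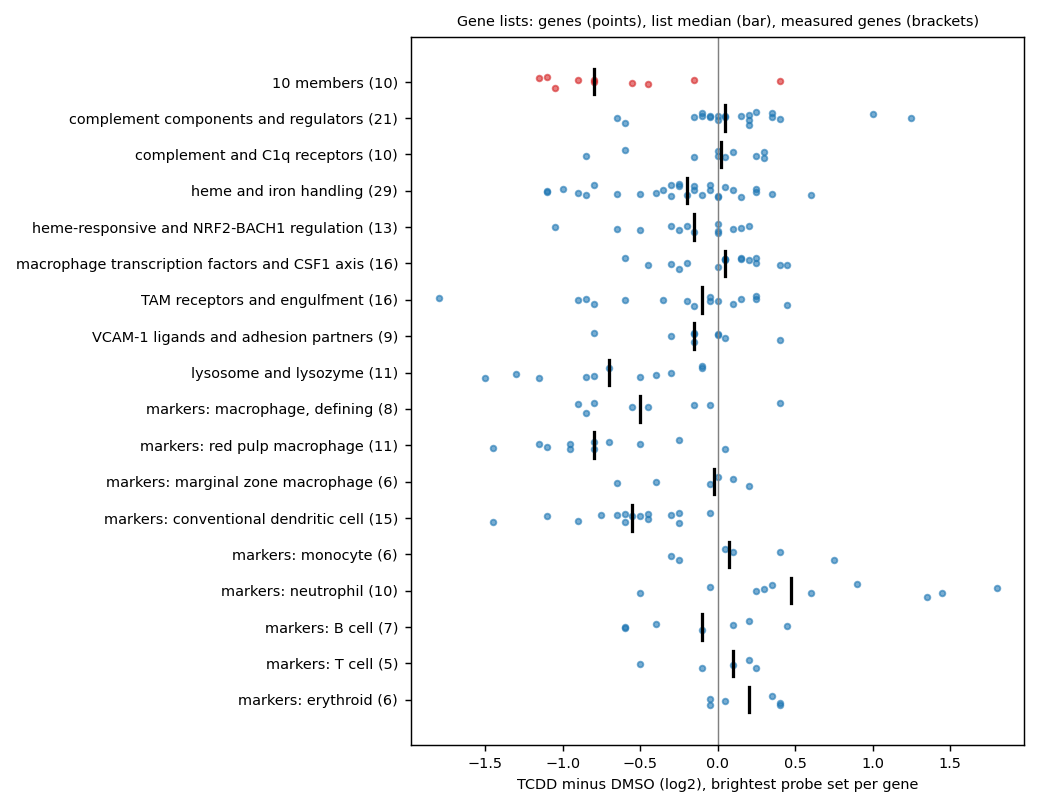
TCDD minus DMSO differences on the log2 scale (x axis) of the genes of each list (points, brightest probe set; the number measured in brackets) with the list median (bar). The medians of the 10 genes and of the red pulp list, which share 3 genes, are both -0.80; those of the lysosomal list and the conventional dendritic cell markers are -0.70 and -0.55.

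Other cell types in the preparation were followed by their markers. Of 15 conventional dendritic cell markers 7 were lower without overlap and 0 higher, with a median of -0.55 that was -0.25 with quantile normalization. Of the 11 with a DMSO mean of 8 or more 5 were lower, near the 42.7% of all genes at that level, and 1 of the 15, Xcr1, was among the dimmest 40%. Their summed linear signal was 32471 and 24732 after DMSO, 13425 and 23025 after TCDD. Of 8 defining macrophage markers, 6 of them members, 3 were lower without overlap and 0 higher, beside 19.4% and 20% of all genes. Their median was -0.50, or -0.31 with quantile normalization, and 0 were among the dimmest 40% in these sorted cells. Of the 4 with a DMSO mean of 8 or more 1 was lower, against 42.7% of all genes at that level. The summed signal of the 8 was 6789 and 6273 after DMSO, 7574 and 4343 after TCDD. Csf1r weighs most in it, at 12.1 and 12.1 after DMSO, 12.5 and 11.4 after TCDD. The red pulp list, some members included, summed to 6038 and 9606 in DMSO and to 3870 and 3939 in TCDD. Without the members it summed to 3086 and 4248 in DMSO and to 1826 and 2114 in TCDD. The groups did not overlap in either red pulp sum, nor in the sums of the dendritic cell markers and of all genes. The sum over all genes was 2.79e+06 and 2.84e+06 after DMSO, 2.59e+06 and 2.22e+06 after TCDD. Neutrophil markers stood at a median of 0.775 against the DMSO mean in TCDD replicate 1 and of 0.025 in TCDD replicate 2, with sums of 861 and 732 after DMSO, 3159 and 744 after TCDD. B cell and T cell markers had medians of -0.10 and 0.10 and monocyte markers 0.075. In RNA of a whole cell preparation fewer macrophages and less of these transcripts per cell cannot be told apart, and the part of other cells in the members' values was not tested.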

How the data were processed

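The authors deposited log2 values made with RMA (per the submitters' processing notes), rounded to 1 decimal. The software is not given in the sources used. RMA corrects background, quantile-normalizes and summarizes probe sets. RNA was amplified before labelling, per the labels' protocols. Tests excluded 64 control probe sets. Gene names came from the platform's annotation, updated by gene ID where possible.

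TCDD was compared with DMSO on all 22626 probe sets with limma 3.58.1 in R 4.3.3 (lmFit, eBayes, two-sided; Benjamini-Hochberg; threshold 0.05), fitted without a replicate block and tested on simulated data. At 2 against 2 the smallest p of an exact permutation test is 0.33, so none was run. SE is limma's moderated one. The number of arrays limits precision.

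Lists used each gene's brightest probe set with 1 symbol. Named were all members and up to 4 genes per list by size of difference, except where stated; marker lists are given mainly by counts. "Dimmest 40%" means a mean under 5.525. The members and lists were chosen with earlier results of these data known. Alternatives covered scaling, dim probe sets, the replicate block, the prior, moderation, the choice of probe set and each array left out.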

Additional observations from a re-analysis of the deposited data

How the results depend on the processing

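Cyclic loess, the crossed block and the choice of probe sets without the x or s suffix were added once the values were known. Limma called 0 of the 17 member probe sets under every alternative run, and 1 to 8 of them passed an unadjusted p under 0.05. The replicate block called 0 members and 0 of all probe sets, with 3 members at an unadjusted p under 0.05. The labels do not say whether the numbers pair the arrays. The gaps between replicates 1 and 2 of the groups correlated at -0.189 over all probe sets, and the crossed block called 0. Under these alternatives 13 member probe sets kept their direction and 4 did not. The dimmer x-suffix probe set of C1qb became 0.26 with quantile normalization and 0.24 with cyclic loess, and ranged from -0.95 to 0.85 with an array left out; the brighter one ranged from -0.55 to 1.35. The brightest probe set of Csf1r became 0.0375 with quantile normalization and 0.12 with cyclic loess, with a range from -0.70 to 0.40, and the next became 0.24 and 0.25, with a range from -0.60 to 0.50. Of other genes, Icam1 became 0.16 with quantile normalization and 0.15 with cyclic loess. With an array left out it ranged from -0.35 to 0.05, C1qbp from -0.15 to 0.75, Cebpb from -1.55 to 0.35 and Itgav from -1.75 to 0.05. The cause was not tested. Of 32 named differences in the gene lists 13 were over 1.5 times apart in size, or opposite in sign (1), between the deposited and the quantile-normalized values. The count of 6 genes lower without overlap was 4 with quantile normalization (15% of all genes) and with cyclic loess (21.2%), and 6 to 8 with an array left out, where the pattern is easier to meet. The median of the 10 genes was -0.44 with quantile normalization, -0.52 with cyclic loess and -0.875 to -0.475 with an array left out.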

Other observations

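Patterns most like those of the members were sought over the 4 arrays by the Euclidean distance between mean-centred log2 values, among probe sets with 1 symbol above the dimmest 40%. Nearest to Hmox1 were Cdc123, a translation initiation factor assembly gene, Ifrd1 and Ctnnb1, the beta-catenin gene, each at a distance of 0.087. Ctnnb1 read 10.3 and 10.6 after DMSO, 9.2 and 9.4 after TCDD. Of 12418 probe sets 31 lay within 0.2 of Hmox1. Nearest to the mean of the 3 C1q chains on their brightest probe sets were Ndufv1, Diablo and Smim7, with 161 probe sets within 0.2. On the C1q probe sets without the x suffix, a choice made after the data were seen, they were Trappc4, Rpn1 and Derl2, with 20 within 0.2. With 4 arrays and values in steps of 0.1 such likeness is a description only.

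Erythroid markers, which fall outside the comparisons of the members, had a median difference of 0.20 over 6 genes. Of these 3 were higher without overlap and 0 lower, beside 20% and 19.4% of all genes. The 3 had low DMSO means, from 5.35 to 6.45. Klf1, a transcription factor of red cell precursors, read 6.5 and 6.4 after DMSO, 6.7 and 7.0 after TCDD. Epb42, a red cell membrane protein gene, read 5.4 and 5.5 after DMSO, 5.7 and 6.0 after TCDD. Neither passed the adjusted test of limma (adjusted p = 0.409 for both).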
